A study of Mus musculus with 17 samples.

Results

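The 10 genes described here encode the coat proteins of lipid droplets and the lipases that draw on stored or circulating triglyceride: Plin1, Plin2, Plin3, Plin4, Plin5, Cidea, Cidec, Pnpla2, Lipe and Lpl. They were chosen by name from the 19938 genes with a probe set of a single gene symbol, and each of the 10 had exactly 1 probe set, so no choice between probe sets was needed. Skeletal muscle of 17 male wildtype C57BL/6N mice aged 5 to 6 months was measured on Affymetrix Mouse Gene arrays, 1 array per mouse. Streptozotocin (STZ), a toxin that destroys the insulin-producing beta cells, had been given intraperitoneally at 10 to 16 weeks of age, at 65 mg/kg on each of 5 days. The STZ,BEZ group (n = 5) received STZ and then, from 2 weeks later and for 8 weeks, a standard chow containing the fibrate drug bezafibrate at 0.25% or 0.5%. The STZ,SD group (n = 5) received STZ and the standard diet without the drug. The Con,SD group (n = 7) was mock-injected with citrate buffer and ate the same standard diet. The sources used here do not give the bezafibrate strength of each mouse or the muscle that was taken. The labels were followed here, and the study's methods name a lower STZ dose, only the higher drug strength and untreated controls. STZ mice are a model of insulin deficiency.

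Muscle fibres store fatty acids as triglyceride in droplets whose surface is covered by perilipins, the Plin proteins, which hold lipases off or recruit them. Stored triglyceride is opened by adipose triglyceride lipase (the product of Pnpla2) and then by hormone-sensitive lipase (Lipe), while lipoprotein lipase (Lpl) works outside the cell, on the capillary wall, and releases fatty acids from circulating lipoproteins. Insulin restrains the intracellular lipases in fat cells, and fibrates activate the nuclear receptor PPAR alpha, for which several of these genes are known targets.

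The genes on which the results turn were Plin2, Plin4, Plin5 and Pnpla2. Their promoter sequences (RefSeq, GRCm38.p6, 250 bases before to 50 bases after an annotated start) are shown because these genes moved in opposite directions in STZ,SD muscle, and the letters AGGTCA and CACGTG, searched on both strands, are in capitals. AGGTCA is the hexamer that nuclear receptors such as PPARs bind in pairs, and CACGTG is a form of the E-box.
Plin2 promoter (chr4:86670010-86670309, minus strand): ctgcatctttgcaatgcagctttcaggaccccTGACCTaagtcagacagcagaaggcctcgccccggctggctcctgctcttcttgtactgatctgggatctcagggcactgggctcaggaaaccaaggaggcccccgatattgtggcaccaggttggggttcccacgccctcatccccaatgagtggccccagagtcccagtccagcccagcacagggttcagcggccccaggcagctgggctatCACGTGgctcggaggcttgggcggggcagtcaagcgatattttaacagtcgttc
Plin4 promoter (chr17:56109733-56110032, minus strand): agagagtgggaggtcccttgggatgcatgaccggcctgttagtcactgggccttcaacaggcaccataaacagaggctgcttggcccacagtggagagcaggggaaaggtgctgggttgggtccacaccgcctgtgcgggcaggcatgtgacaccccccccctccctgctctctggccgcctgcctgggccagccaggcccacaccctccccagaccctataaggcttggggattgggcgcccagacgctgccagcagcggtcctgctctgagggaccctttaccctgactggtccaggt
Plin5 promoter (chr17:56117499-56117798, minus strand): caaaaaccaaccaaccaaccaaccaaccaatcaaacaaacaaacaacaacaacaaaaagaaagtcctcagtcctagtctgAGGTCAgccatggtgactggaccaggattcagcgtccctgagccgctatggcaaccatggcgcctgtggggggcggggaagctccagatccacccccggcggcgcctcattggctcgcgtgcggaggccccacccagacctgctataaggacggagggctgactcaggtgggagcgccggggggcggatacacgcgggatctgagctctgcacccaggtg
Pnpla2 promoter (chr7:141454938-141455237, plus strand): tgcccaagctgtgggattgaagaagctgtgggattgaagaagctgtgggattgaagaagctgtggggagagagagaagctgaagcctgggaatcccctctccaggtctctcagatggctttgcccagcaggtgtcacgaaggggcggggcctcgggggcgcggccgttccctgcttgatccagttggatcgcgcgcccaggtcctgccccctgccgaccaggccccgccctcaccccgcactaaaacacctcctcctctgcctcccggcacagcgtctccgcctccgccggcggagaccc

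The Plin2 window held AGGTCA on the opposite strand (TGACCT) starting at position -218 and CACGTG at position -4, both counted from the start site. Around the first of these, at position -225, lay a pair of AGGTCA hexamers spaced by 1 base with 2 mismatches in all, a spacing known for PPAR binding. Of all 32851 promoter windows of this length, 16.3% held AGGTCA, 7.15% held CACGTG and 3.86% held such a pair with at most 2 mismatches. The Plin5 window held AGGTCA at position -170, and the other Plin5 window, of another annotated start, held it at position 13. The windows of Plin4 and Pnpla2 held neither AGGTCA nor CACGTG. The forkhead core TGTTTAC, in 3.65% of all windows, occurred in 1 of the 2 Lipe windows, at position -119, and in no window of the other matched members. These matches describe letters only. Windows were matched for 8 of the 10 members, all but Cidea and Lpl. On the same reference Plin4 and Plin5 are direct neighbours on chromosome 17, with 0 genes between them, and Plin3 follows after 9 genes.

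The arrays carried some signal of other tissues, which touches several members. The mean log2 value of 10 measured fat cell markers, among them Adipoq, Lep and Fabp4 but none of the 10 members, lay between 8.03 and 8.90 in STZ,BEZ muscle, between 7.81 and 8.67 in STZ,SD muscle and between 8.31 and 9.52 in Con,SD muscle, where array 2 was the highest of all. Hepatocyte marker levels had medians of 8.12, 8.57 and 8.77 in these groups, and Con,SD array 1, the highest with 11.83, also stood apart in testis markers (8.61, against at most 5.84 on the other Con,SD arrays). Markers of slow muscle fibres, such as Myh7, averaged 8.65 to 10.44 on STZ,BEZ arrays, 7.03 to 10.07 on STZ,SD arrays and 6.98 to 9.57 on Con,SD arrays, a wide range within each group. The tissue itself was borne out by Ckm, the creatine kinase of muscle, at means of 13.85, 13.84 and 13.89. In such whole-tissue RNA a smaller number of cells of a type and less RNA per cell cannot be told apart. Arrays of a group correlated at 0.993 or more in STZ,BEZ, 0.988 or more in STZ,SD and 0.959 or more in Con,SD over all genes.

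In the first comparison, which asks what insulin deficiency on a standard diet did, STZ,SD muscle had more Pnpla2, Plin4 and Plin5 mRNA and less Plin2 mRNA than Con,SD muscle. Pnpla2 rose 1.70-fold, Plin4 1.65-fold and Plin5 1.42-fold, and Plin2 fell 1.62-fold. The other 6 members did not pass the test. A gene was called at a Benjamini-Hochberg adjusted p under 0.1 over all 19938 genes (limma), a threshold that 25.8% of all genes passed in this comparison, 13.9% higher and 11.9% lower. Of the 10 members 4 were called, 3 higher and 1 lower, a count not far above that background for so few genes. The median log2 difference of the members was 0.07, against -0.01 over all genes.

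**Figure D1:**
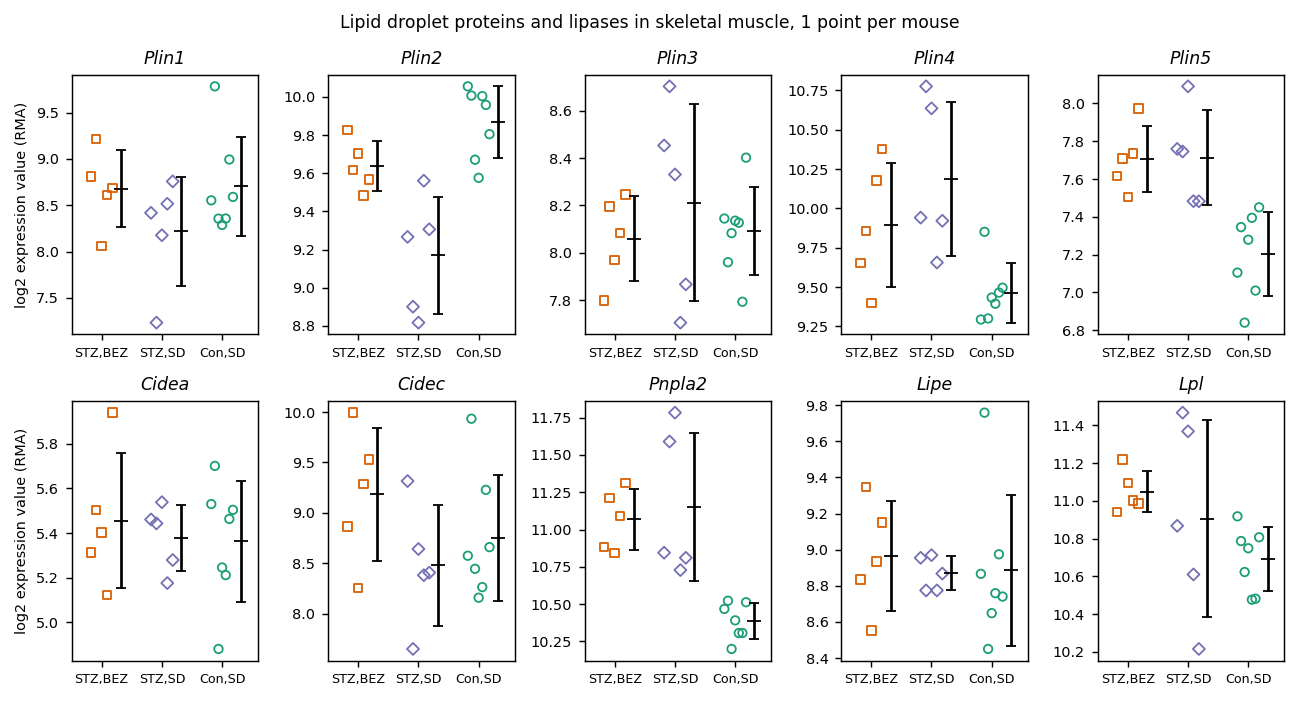
Log2 expression values of the 10 members on each array, in STZ,BEZ (squares, n = 5), STZ,SD (diamonds, n = 5) and Con,SD muscle (circles, n = 7), with each group's mean ± SD as a bar beside the points. Pnpla2 and Plin5 lay higher in every STZ array than in any Con,SD array, and Plin2 lay lower in every STZ,SD array than in any Con,SD array.

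Plin2, also called adipophilin, coats droplets in most cell types and is broken down when it is not bound to one. Its log2 values in STZ,SD muscle were 9.27, 8.90, 8.82, 9.56 and 9.31 on arrays 1 to 5, while Con,SD muscle ranged from 9.58 to 10.06 with a median of 9.96. All 5 STZ,SD values lay below the lowest control value, narrowly for array 4, and arrays 2 and 3 were the lowest of the whole series. The mean was 9.17 ± 0.31 in STZ,SD and 9.87 ± 0.19 in Con,SD muscle (SD, n = 5 and 7). The log2 difference of -0.70 ± 0.12 (SE) had an adjusted p of 0.000539 (limma).

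Plin5 is the perilipin of oxidative tissues and tethers droplets to mitochondria. Its values in STZ,SD muscle were 7.76, 7.75, 8.09, 7.48 and 7.48, against a range of 6.84 to 7.45 and a median of 7.28 in Con,SD muscle. The groups did not overlap, although STZ,SD arrays 4 and 5 lay only just above the highest control. The log2 difference was 0.51 ± 0.12 (adjusted p = 0.00607). Plin4, its neighbour on the chromosome and a perilipin of fat and muscle, had values of 9.94, 10.78, 10.64, 9.66 and 9.92 in STZ,SD muscle, against 9.29 to 9.85 in Con,SD muscle with a median of 9.43. Arrays 2 and 3 were again the extremes, and array 4 lay within the control range, whose top was Con,SD array 2. The log2 difference of Plin4 was 0.72 ± 0.19 (adjusted p = 0.0116).

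The droplet coats of other kinds did not pass the test. Plin3, which binds small and nascent droplets, averaged 8.21 ± 0.41 in STZ,SD and 8.09 ± 0.19 in Con,SD muscle, with the STZ,SD arrays split between 7.71 and 8.70 (difference 0.12 ± 0.14, adjusted p = 0.599). Plin1, the main perilipin of fat cells, had values between 7.23 and 8.76 in STZ,SD muscle and between 8.29 and 9.78 in Con,SD muscle. Its difference of -0.48 ± 0.27 had an adjusted p of 0.227 (limma), although the study's own method, significance analysis of microarrays, called it lower. Its lowest value was on STZ,SD array 2, which also had the lowest fat cell marker level of all arrays (7.81), and its highest on Con,SD array 2, which had the highest (9.52). Cidec, which fuses droplets into larger ones in fat cells, had its lowest value on that same STZ,SD array (7.65) and differed by -0.27 ± 0.32 (adjusted p = 0.594). Cidea, a relative of Cidec known from brown fat, was dim, between 4.88 and 5.94 over all arrays, and differed by 0.02 ± 0.14. The brown fat gene Ucp1 was at means of 4.84 ± 0.17 in STZ,SD and 4.93 ± 0.19 in Con,SD muscle.

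Of the lipases, Pnpla2, which takes the first fatty acid off a triglyceride, was the one that passed the test. Its values in STZ,SD muscle were 10.84, 11.59, 11.78, 10.73 and 10.81, and those in Con,SD muscle ran from 10.20 to 10.52 with a median of 10.39. No STZ,SD array reached down into the control range, and arrays 2 and 3 stood apart from the other 3 arrays of their group. The mean was 11.15 ± 0.50 in STZ,SD and 10.39 ± 0.12 in Con,SD muscle, a log2 difference of 0.76 ± 0.16 (adjusted p = 0.00251). Plin2, Plin5 and Pnpla2 were thus the 3 members whose groups did not overlap, which held for 8.3% of all genes.

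Lipe, the lipase of the second step, was close to level, with 8.87 ± 0.09 in STZ,SD and 8.89 ± 0.42 in Con,SD muscle. Its difference of -0.02 ± 0.17 had a 95% interval of -0.37 to 0.34. Con,SD array 2 held the highest Lipe value of the series, 9.76, while the other control arrays reached at most 8.97. Lpl averaged 10.91 ± 0.52 in STZ,SD and 10.69 ± 0.17 in Con,SD muscle, a difference of 0.21 ± 0.16 (adjusted p = 0.380). Its STZ,SD values of 10.87, 11.47, 11.37, 10.61 and 10.22 lay on both sides of the control range of 10.48 to 10.92. Without STZ,SD array 5, the lowest, the difference was 0.39 and passed the threshold (adjusted p = 0.0594).

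**Figure D2:**
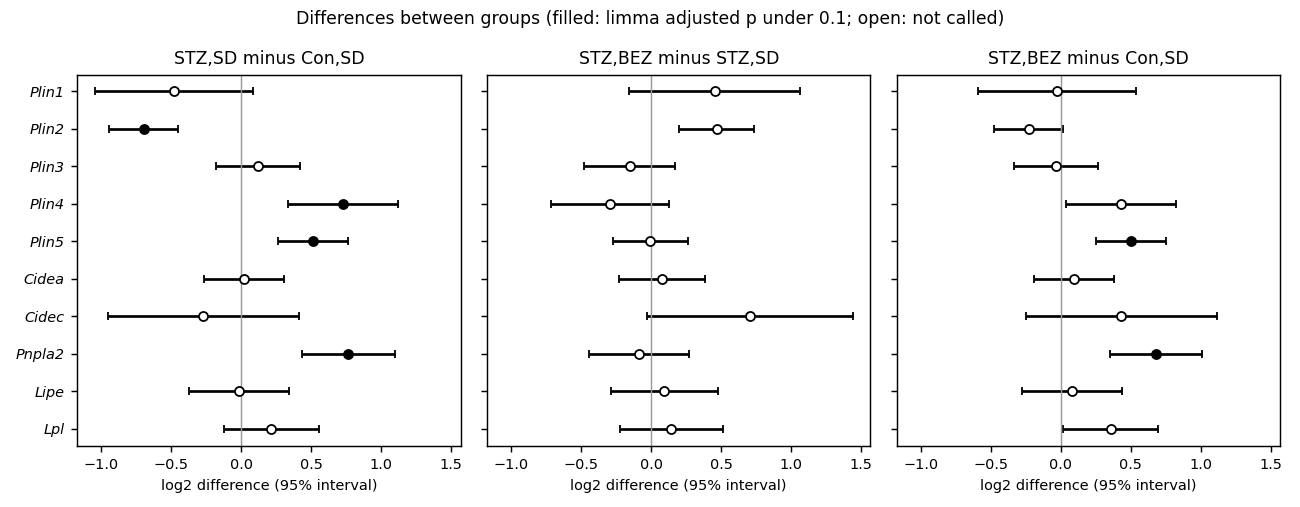
Log2 differences of the 10 members with 95% intervals (limma, all 17 arrays) for STZ,SD minus Con,SD, STZ,BEZ minus STZ,SD and STZ,BEZ minus Con,SD. Filled points passed an adjusted p of 0.1 over all genes: 4 members in the first panel, none in the second and 2 in the third.

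The second comparison asks what bezafibrate did in diabetic muscle, and here 0 of the 10 members were called by limma, as were only 4 of 19938 genes (0.0201%). An unadjusted p under 0.05 was reached by 5.69% of all genes and by 1 of the 10 members, Plin2. For so few genes this count is not far above that background. Its values were 9.83, 9.62, 9.70, 9.48 and 9.57 in STZ,BEZ muscle, against 9.27, 8.90, 8.82, 9.56 and 9.31 in STZ,SD muscle. Only STZ,SD array 4 reached into the STZ,BEZ range, and the spread within the group was smaller with the drug (SD 0.13 in STZ,BEZ and 0.31 in STZ,SD). The log2 difference was 0.47 ± 0.13, or 1.38-fold, with an adjusted p of 0.778 (limma). Significance analysis of microarrays also called 0 members. This comparison uses the same STZ,SD arrays as the first comparison. Low Plin2 values on these arrays would alone give both the fall against Con,SD muscle and the opposite difference here. The Plin2 differences of the first and second comparisons are therefore not independent of each other.

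Plin4, Plin5 and Pnpla2, the members called higher in STZ,SD muscle, had drug differences whose 95% intervals included 0. Plin5 averaged 7.71 ± 0.17 in STZ,BEZ and 7.71 ± 0.25 in STZ,SD muscle, a difference of less than 0.01 whose 95% interval ran from -0.27 to 0.26. Pnpla2 averaged 11.07 ± 0.20 and 11.15 ± 0.50 in these groups, with a difference of -0.08 ± 0.17. Its STZ,BEZ values of 10.88, 11.21, 10.84, 11.09 and 11.31 lay below both of the high STZ,SD arrays 2 and 3, and 4 of the 5 lay above the other 3 STZ,SD arrays. Plin4 averaged 9.89 ± 0.39 in STZ,BEZ and 10.19 ± 0.49 in STZ,SD muscle (-0.29 ± 0.20, adjusted p = 0.951).

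Among the genes of fat cells, Cidec was at 8.86, 9.99, 8.25, 9.28 and 9.53 in STZ,BEZ muscle, against 9.32, 7.65, 8.64, 8.38 and 8.41 in STZ,SD muscle. The difference of 0.71 ± 0.35 was the largest of any member and the least precise, with a 95% interval of -0.03 to 1.44 and an adjusted p of 0.895. Plin1 differed by 0.46 ± 0.29, while the fat cell markers had a median difference of 0.14 in the same comparison, with 9 of 10 above 0. The part of fat cell RNA in these differences was not tested beyond the fits with the marker level as a covariate. Lipe (0.10 ± 0.18), Lpl (0.14 ± 0.17), Plin3 (-0.15 ± 0.16) and Cidea (0.08 ± 0.15) showed differences below their SE. No member separated the groups without overlap, which 1.16% of all genes did.

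The third comparison set drug-treated diabetic muscle against control muscle. It called 2 of the 10 members, both higher, where 21.6% of all genes were called, 13.1% higher and 8.45% lower. Pnpla2 was 1.60-fold higher, with 11.07 ± 0.20 in STZ,BEZ and 10.39 ± 0.12 in Con,SD muscle (log2 difference 0.68 ± 0.16, adjusted p = 0.00738). Plin5 was 1.42-fold higher, with 7.71 ± 0.17 in STZ,BEZ and 7.20 ± 0.22 in Con,SD muscle (0.50 ± 0.12, adjusted p = 0.00844). For both genes the lowest STZ,BEZ array lay above the highest control array. This comparison uses the same Con,SD arrays as the first one, so the values of Pnpla2 and Plin5 in the 2 comparisons are not independent of each other.

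Lpl, between 10.94 and 11.22 on the 5 STZ,BEZ arrays, lay above the control range of 10.48 to 10.92 on every array, and was the third member without overlap, against 8.51% of all genes. Its difference of 0.36 ± 0.16 did not pass the test over all genes (adjusted p = 0.147), but did in a fit of the 2 groups alone (adjusted p = 0.0125), where the wide spread of Lpl in STZ,SD muscle does not enter. It also passed when either STZ,SD array 2 or STZ,SD array 5 was left out (adjusted p = 0.0975 and 0.0686). Slow fibre markers, all 8 with differences above 0, had a median difference of 1.11 in this comparison, though none was called. When the mean of these markers entered the fit, the difference of Lpl was 0.16 (adjusted p = 0.454). Plin4 differed by 0.43 ± 0.19 (adjusted p = 0.131), and Plin2, at 9.64 ± 0.13 in STZ,BEZ and 9.87 ± 0.19 in Con,SD muscle, by -0.23 ± 0.12 (adjusted p = 0.200). Cidec differed by 0.43 ± 0.32, while Plin1 (-0.03), Plin3 (-0.03), Cidea (0.09) and Lipe (0.08) stayed near 0.

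Within the groups several members varied together from mouse to mouse. Correlations were computed over the 17 arrays after subtracting each group's mean, for 45 pairs of members and 80 pairs of a member with a marker level, with two-sided permutation tests that shuffled arrays within groups (100000 resamples) and Benjamini-Hochberg adjustment over all 125. In total, 20 relations had an adjusted p under 0.1, of which 10 were pairs of members. Some of these pairs cut across the sets described below. They were Cidea with Pnpla2 (r = 0.521, permutation test, adjusted p = 0.0373), Cidea with Plin5 (r = 0.594, adjusted 0.0971) and Plin4 with Lipe (r = 0.461, adjusted 0.0992). By Spearman's rho the first of them passed (adjusted p = 0.0564) and the others did not (0.193 and 0.292). Plin1, Cidec and Lipe formed one set. Cidec and Lipe had r = 0.845 (permutation p = 4e-05, adjusted 0.0025) and Spearman's rho = 0.853 (p = 6e-05, adjusted 0.00292), and r was 0.829 without the 2 arrays farthest from the median of Cidec. Plin1 and Cidec had r = 0.841 (permutation p = 0.00041, adjusted 0.00854), rho = 0.811 (p = 0.00062, adjusted 0.0129), and r = 0.736 without the 2 farthest arrays. All 3 genes followed the fat cell marker level, Plin1 most closely with r = 0.969 (permutation p = 1e-05, the smallest these resamples allow, adjusted 0.00125), rho = 0.956 (p = 3e-05, adjusted 0.00292) and r = 0.958 without the 2 farthest arrays. For Cidec the value was r = 0.868 (permutation p = 0.00019, adjusted 0.00594; rho = 0.850, p = 0.00018, adjusted 0.00562; 0.845 without the 2 farthest), and for Lipe r = 0.840 (permutation p = 0.00037, adjusted 0.00854; rho = 0.762, p = 0.00059, adjusted 0.0129; 0.636 without the 2 farthest).

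Plin4, Plin5 and Pnpla2, the members that were higher in STZ,SD muscle, also varied together within groups. Plin4 and Pnpla2 had r = 0.865 (permutation p = 0.00087, adjusted 0.0121), rho = 0.892 (p = 0.0009, adjusted 0.0161), and r = 0.830 without the 2 farthest arrays. Plin5 and Pnpla2 had r = 0.716 (permutation p = 0.00058, adjusted 0.00906), rho = 0.681 (p = 0.0055, adjusted 0.059), and r = 0.617 without the 2 farthest arrays. Within the 7 Con,SD arrays alone r was 0.575 for the first of these pairs and 0.677 for the second, over a narrow range of values. Plin2 ran against Pnpla2 with r = -0.680 (permutation p = 0.0305, adjusted 0.153), rho = -0.512 (p = 0.0806, adjusted 0.25), which did not pass the correction, and r = -0.62 without the 2 farthest arrays. Within the 7 Con,SD arrays alone this pair had the opposite sign, with r = 0.320. STZ,SD arrays 2 and 3 had the highest Pnpla2 and Plin4 values and the lowest Plin2 values of all 17 arrays. The 2 farthest arrays of each pair above were chosen on its first-named gene, with group means subtracted. For these pairs they never included both STZ,SD array 2 and STZ,SD array 3. The relations of this paragraph were therefore not tested without both of these arrays. Without STZ,SD array 3, and equally without array 2, Plin2, Plin4, Plin5 and Pnpla2 stayed called in STZ,SD against Con,SD muscle.

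Plin3 and Lpl varied with the markers of slow fibres, though other marker relations also passed. Lpl and the brown fat marker level had r = 0.418 (permutation test, adjusted p = 0.0139), but rho = 0.502 did not pass (adjusted 0.144). That level was 6.23 on Con,SD array 1, the array with liver and testis markers, and at most 5.63 elsewhere. Of its markers, Elovl3 reached 9.06 in Con,SD muscle (median 5.38), while Ucp1 was only 4.71 on array 1. Further passing values of r were -0.735 for Plin4 with macrophage markers (adjusted 0.0919) and 0.650 for Plin3 with skeletal muscle fibre markers (0.0992). With endothelium markers, Plin1 had r = -0.653 (adjusted 0.0596) and Lipe -0.513 (0.0992). Plin3 and the slow fibre marker level had r = 0.846 (permutation p = 0.00017, adjusted 0.00594), rho = 0.902 (p = 7e-05, adjusted 0.00292), and r = 0.869 without the 2 farthest arrays. For Lpl the value was r = 0.712 (permutation p = 0.0121, adjusted 0.0946), rho = 0.730 (p = 0.00901, adjusted 0.0804), and 0.649 without the 2 farthest arrays. Lpl also varied with Pnpla2 (r = 0.801, permutation p = 0.012, adjusted 0.0946; rho = 0.755, p = 0.00566, adjusted 0.059; r = 0.643 without the 2 farthest arrays).

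**Figure D3:**
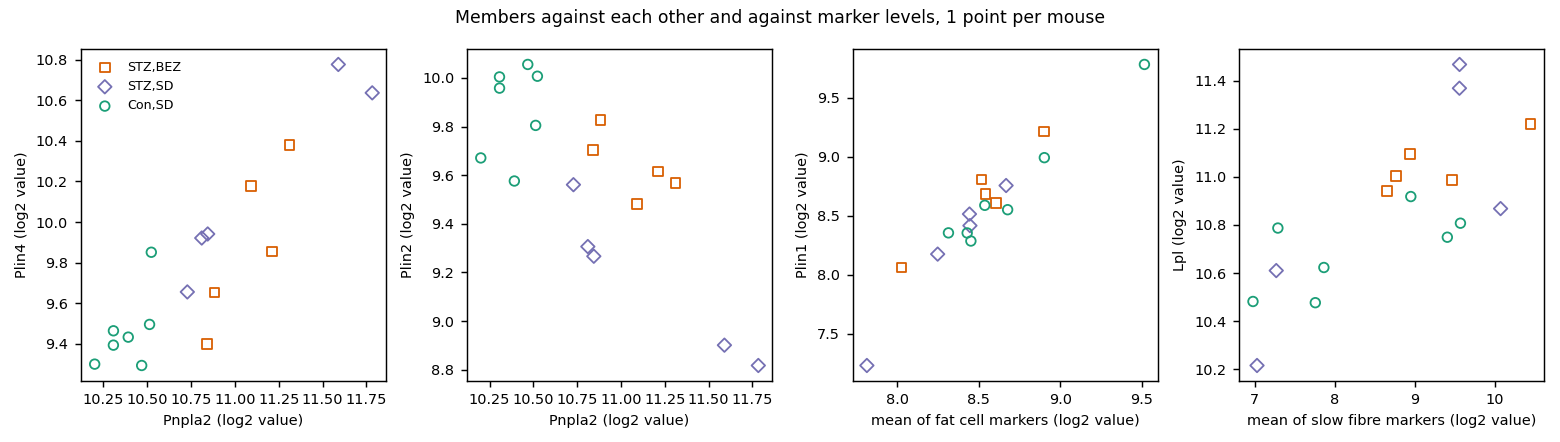
Log2 values on each of the 17 arrays for Plin4 and Plin2 against Pnpla2, Plin1 against the mean of the fat cell markers and Lpl against the mean of the slow fibre markers, in STZ,BEZ (squares), STZ,SD (diamonds) and Con,SD muscle (circles). STZ,SD arrays 2 and 3 stand at the far right of both Pnpla2 panels, and Con,SD array 2 at the upper right and STZ,SD array 2 at the lower left of the Plin1 panel.

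**Figure D4:**
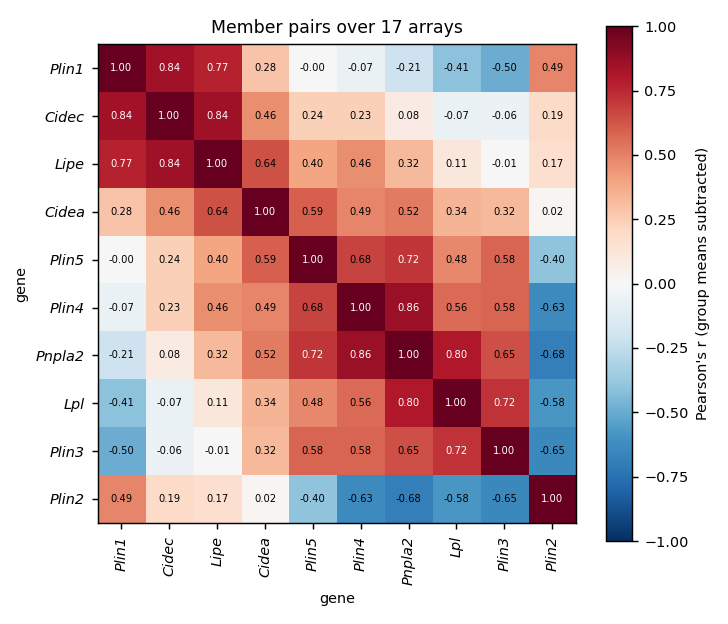
Pearson's r between members over the 17 arrays after subtracting each group's mean, from blue (-1) to red (1). Plin1, Cidec and Lipe form one block. Plin5, Plin4 and Pnpla2 are positive with each other and also with Lpl, Plin3 and Cidea, without a sharp boundary. Plin2 is negative with Plin5, Plin4, Pnpla2, Lpl and Plin3.

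The genes whose pattern over the 17 arrays was most like that of each member are given as a description over points that share their groups. Nearest to Pnpla2 were Acacb (r = 0.971), Egln3 (0.970) and Ptp4a3 (0.967). Acacb makes the malonyl-CoA that holds fatty acids out of mitochondria, and Egln3 is an oxygen-sensing prolyl hydroxylase. Nearest to Plin4 were Eif4ebp1 (0.952), Pde4dip (0.947) and Stc2 (0.947), and, with group means subtracted, Fkbp5 (0.948), a well-known glucocorticoid-responsive gene. Plin5 was nearest to Slc25a27 (0.951), Lama5 (0.945) and Slc27a1 (0.942), the last a fatty acid transport protein of the muscle membrane. Plin2 was nearest to H2az2 (0.964), Czib (0.936) and Smim19 (0.932). Plin1 was nearest to Lgals12 (0.938), Dram1 (0.917) and Aoc3 (0.900), and within groups to Adipoq (0.947), the gene of the fat cell hormone adiponectin. Cidec was nearest to Car5b (0.925), Slc1a5 (0.914) and the fat cell fatty acid binding protein Fabp4 (0.910), and Lipe to Pparg (0.894), Apcdd1 (0.867) and Slc1a5 (0.829). Lpl had Zdhhc23 (0.916), Ipo5 (0.906) and Snai3 (0.891) nearest, Plin3 had Cep295 (0.872), Hspb7 (0.853) and Asb11 (0.850), and the dim gene Cidea had no neighbour above 0.829 (Myo1d).

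Of 10 measured lipase cofactors, inhibitors and other lipases, 0 were called higher and 4 lower in STZ,SD than in Con,SD muscle. Over all genes 13.9% were called higher and 11.9% lower there. The median log2 difference of the list was -0.21, with 9 of the 10 below 0. Abhd5, the coactivator that the product of Pnpla2 needs for full activity, fell by 0.21 ± 0.07 (adjusted p = 0.0387), with means of 9.10 ± 0.14 in STZ,SD and 9.31 ± 0.08 in Con,SD muscle. Abhd6, a monoacylglycerol lipase, fell by 0.53 ± 0.08 and Ces1d, a carboxylesterase with triglyceride lipase activity, by 0.75 ± 0.18, and Pnpla8, a mitochondrial phospholipase, by 0.34 ± 0.09. G0s2, the inhibitor of the Pnpla2 product, was at 7.23 ± 0.11 in STZ,SD and 7.29 ± 0.16 in Con,SD muscle (adjusted p = 0.652), and Hilpda, a further inhibitor, at 5.52 ± 0.12 and 5.34 ± 0.23 (adjusted p = 0.182). In STZ,BEZ against STZ,SD muscle 0 of the 10 were called, against 0.0201% of all genes. Abhd5, Abhd6, Mgll, Pnpla8 and Ces1d, 5 of the 10, had an unadjusted p under 0.05 (limma), which 5.69% of all genes reached. Their differences were 0.18 to 0.54, all above 0, in a list chosen with earlier results of these data known. Abhd5, Abhd6, Pnpla8 and Ces1d were also the 4 genes called lower in STZ,SD against Con,SD muscle, on the same STZ,SD arrays. Low values on these arrays would alone give both differences, which are therefore not independent of each other. Of the 5 genes only Abhd6 was called in STZ,BEZ against Con,SD muscle, where it was lower by 0.35 on the log2 scale.

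Of 9 measured genes for the maturation, anchoring and inhibition of lipoprotein lipase, 1 was higher and 1 lower in STZ,SD than in Con,SD muscle. Over all genes the shares were 13.9% and 11.9%. Angptl4, a secreted inhibitor of the enzyme, rose by 0.53 ± 0.17 (adjusted p = 0.0389). Its values were 7.05, 6.91, 7.51, 7.19 and 7.46 in STZ,SD muscle, against 6.36 to 7.42 in Con,SD muscle with a median of 6.65, and only the high Con,SD array 2 reached into the STZ,SD range. Vldlr, the very low density lipoprotein receptor, fell by 0.59 ± 0.11, and Gpihbp1, which carries the lipase to the capillary surface, was at 8.47 ± 0.26 in STZ,SD and 8.38 ± 0.15 in Con,SD muscle (adjusted p = 0.583). In STZ,BEZ muscle Angptl4 averaged 6.91 ± 0.33, between the other groups and not called against either. Of the markers of endothelium, on whose surface the lipase acts, 5 of 8 were called higher in STZ,SD against Con,SD muscle. The share over all genes was 13.9%. The median difference of these markers was 0.20.

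Of 13 genes of triglyceride synthesis, 1 was higher and 3 lower in STZ,SD than in Con,SD muscle, against 13.9% and 11.9% of all genes. Agpat2, which makes phosphatidic acid and is best known from fat tissue, fell by 1.14 ± 0.25 and Dgat2, which adds the last fatty acid, by 0.81 ± 0.19. Dgat1, the other enzyme of the last step, was at 8.11 ± 0.23 in STZ,SD and 8.35 ± 0.21 in Con,SD muscle (adjusted p = 0.175). Agpat3, a relative of Agpat2, rose by 0.29 ± 0.09 (adjusted p = 0.0293). In STZ,BEZ against Con,SD muscle 2 of the 13 were higher, Gpat3 (0.32 ± 0.09) and Agpat3 (0.31 ± 0.09), and 1 was lower, Dgat2 (-0.61 ± 0.19). Over all genes the shares there were 13.1% and 8.45%. Of 15 genes of droplet formation, 0 were higher and 2 lower in STZ,SD against Con,SD muscle, where 13.9% and 11.9% of all genes were. Fitm1, which helps droplets bud from the endoplasmic reticulum in muscle, fell by 0.46 ± 0.07, and Snap23, a membrane fusion protein, by 0.35 ± 0.08. Cideb, the liver member of the Cidec family, was at 6.45 ± 0.37 in STZ,SD and 7.11 ± 1.22 in Con,SD muscle, the wide control spread following Con,SD array 1 with its liver markers.

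Of 5 measured genes of uptake and binding, 2 were higher in STZ,SD than in Con,SD muscle and 0 lower, against 13.9% and 11.9% of all genes. The median log2 difference of the list was 0.31. Slc27a1 rose 2.16-fold (1.11 ± 0.18, adjusted p = 0.00038) and Cd36, the fatty acid translocase, 1.43-fold (0.52 ± 0.12, adjusted p = 0.00468). In STZ,BEZ against Con,SD muscle the same 2 genes were called higher, at 1.16 ± 0.18 and 0.47 ± 0.12, against 13.1% of all genes higher and 8.45% lower. The remaining 3, Slc27a4, Fabp3 and Fabp4, did not pass the test in either comparison. Among 8 genes of the hormone signals that act on the lipases, Npr1, the receptor for natriuretic peptides, rose by 0.29 ± 0.08 and Prkar2a, a regulatory subunit of protein kinase A, fell by 0.39 ± 0.07. Of the fat cell markers themselves, 2 of 10 fell in STZ,SD muscle, against 11.9% of all genes. Lep fell by 1.51 ± 0.32 and Sncg by 1.17 ± 0.24, while Adipoq was at 8.65 ± 0.76 in STZ,SD and 8.78 ± 0.62 in Con,SD muscle. No gene of any of these lists was called in STZ,BEZ against STZ,SD muscle.

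**Figure D5:**
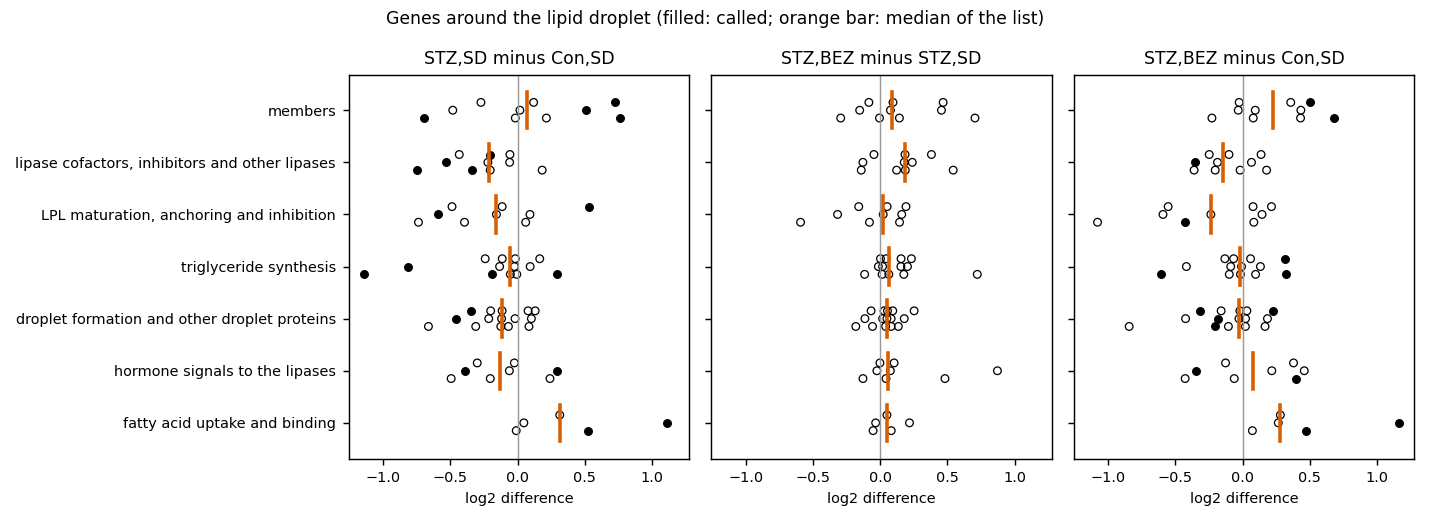
Log2 differences of single genes in the member list and in 6 lists of genes around the lipid droplet, for the 3 comparisons, with filled points for called genes and an orange bar for each list's median. In STZ,SD minus Con,SD the lipase cofactors lie mostly below 0 (median -0.21) and the uptake genes mostly above it (median 0.31), and no point is filled in STZ,BEZ minus STZ,SD.

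With Con,SD arrays 1 and 2 left out, an alternative chosen after seeing the data, the counts of called members remained at 4, 0 and 2 in the 3 comparisons. The labels call the arrays of a group biological replicates, and the 5 to 7 arrays per group limit the precision of each value.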

How the data were processed

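The deposited values are log2 expression values that the authors made with RMA, which corrects background, applies quantile normalization and sums probes by median polish. Affymetrix Expression Console 1.2 is named for this step in the submitters' processing notes. Array medians lay between 6.22 and 6.32, and quantile normalization hides any change that most genes share. The arrays' own detection calls and scan dates were not used here, so no batch could be tested.

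Of 35556 probe sets, 21789 had 1 gene symbol, 1621 several and 12146 none. The probe set with the highest mean was kept for each of 19938 genes. Groups came from the labels. All 17 arrays entered 1 fit with limma 3.58.1 in R 4.3.3 (lmFit, eBayes). Calls used p adjusted after Benjamini-Hochberg over all genes, at the study's false discovery rate of 0.1. The fit was also run on simulated arrays with independent noise for each gene and 200 changed genes. Such arrays lack the signal of other tissues that genes share here, so they do not test the calls made in these data. The study's own method, significance analysis of microarrays (100 permutations), was an alternative, as were other normalizations, probe set rules, filters, covariates, a replicate block and leaving out each array.

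The members and gene lists were chosen with earlier results of these data known. Named are all members, up to 4 called genes per list and comparison with the smallest adjusted p, a fixed set of cofactors and markers, and the 3 genes most like each member. Mgll was named after its values were seen, and listed genes without a probe set of their own symbol were left out.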

Additional observations from a re-analysis of the deposited data

Results flagged for a closer look

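In Con,SD muscle, array 2 lay far from the other 6 arrays for 2 members. Plin4 was at 9.85 there, while the next control array had 9.50. Lipe was at 9.76 there, while the next had 8.97. The same array had the highest fat cell marker level of the series (9.52). Of the 30 sets of values checked (10 members in 3 groups), chance alone puts about 1 in 20 past this limit. The part of fat cell RNA in the Plin4 and Lipe values was not tested for this array alone. Without it, the log2 difference of Plin4 between STZ,SD and Con,SD muscle was 0.79, and that of Lipe was 0.13 with an adjusted p of 0.477.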

How the results depend on the processing

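The calls of Plin2, Plin4, Plin5 and Pnpla2 in STZ,SD against Con,SD muscle, and of Plin5 and Pnpla2 in STZ,BEZ against Con,SD muscle, kept direction and threshold in all 31 alternatives, and no alternative called a member in STZ,BEZ against STZ,SD muscle. In STZ,SD against Con,SD muscle 4 to 5 members were called, while 3814 to 8673 genes or probe sets were called over these alternatives. Significance analysis of microarrays added Plin1, as lower (-0.482), and leaving out STZ,SD array 5 added Lpl, as higher (0.387). In STZ,BEZ against Con,SD muscle the main fit called 2 members and 4298 of 19938 genes. Significance analysis of microarrays called 6 members and 4932 genes. A fit of the 2 groups alone called 4 members and 4057 genes. With the fat cell marker level as a covariate 4 members, among them Plin1 and Cidec, and 4196 genes were called. With 1 array left out 2 to 4 members were called, with 4 members and 4330 genes without STZ,SD array 2. Plin4 in that comparison was called without Con,SD array 2 (0.50), without STZ,SD array 2 (0.43) and without STZ,BEZ array 3 (0.55). With all 35556 probe sets tested, 8673 and 7408 probe sets were called in STZ,SD and STZ,BEZ against Con,SD muscle, where 5142 and 4298 genes were called. The 4 genes called in STZ,BEZ against STZ,SD muscle became 24 with significance analysis of microarrays, 8 in the 2 groups alone, 11 with array weights, 11 with the hepatocyte level and 7 with the slow fibre level.

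Some differences that were not called changed sign, and not all of them were near 0. In STZ,SD against Con,SD muscle, Plin1 was at -0.48, Cidec at -0.27 and Lipe at -0.02 in the main fit. The fat cell level as a covariate gave 0.0276 for Plin1, 0.280 for Cidec and 0.257 for Lipe. That level includes Lep and Sncg, themselves called lower in STZ,SD (-1.51 and -1.17) and STZ,BEZ (-1.41 and -1.12) against Con,SD muscle. The other 8 markers were not called. The level is therefore not a measure of fat cell amount alone. The changed signs, and the added calls of Plin1 and Cidec above, were not tested without these 2 markers. The hepatocyte level gave 0.0546 for Lipe, the slow fibre level -0.013 and array weights -0.0314 for Cidea. Leaving out both Con,SD arrays 1 and 2 gave 0.154 for Lipe. In STZ,BEZ against STZ,SD muscle, Plin5 was at 0.00854 with median centring and 0.0315 with array weights, and Lipe at -0.0503 with the fat cell level. In STZ,BEZ against Con,SD muscle, Plin1 was at 0.213 with the fat cell level (adjusted p = 0.0854), 0.0525 with the hepatocyte level, 0.150 with the slow fibre level and 0.160 without Con,SD arrays 1 and 2, and Plin3 at 0.0126 with the hepatocyte level. The cause was not tested beyond these fits.

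With 1 array left out at a time, differences ran in STZ,SD against Con,SD muscle from -0.0033 to 0.246 for Plin3, -0.0630 to 0.0735 for Cidea and -0.0896 to 0.128 for Lipe. In STZ,BEZ against STZ,SD muscle they ran from -0.0712 to 0.0897 for Plin5, -0.0442 to 0.160 for Cidea, -0.190 to 0.0741 for Pnpla2, -0.000109 to 0.199 for Lipe and -0.0292 to 0.284 for Lpl, and in STZ,BEZ against Con,SD muscle from -0.161 to 0.154 for Plin1, -0.0828 to 0.0318 for Plin3, -0.0271 to 0.177 for Cidea and -0.0172 to 0.224 for Lipe. Same-numbered arrays had deviations that correlated at -0.239 to 0.083, and all values between STZ,BEZ and STZ,SD arrays were below 0 (-0.239 to -0.0317). These values cannot show whether the numbers carry a pairing or a batch. With the number as a replicate block, 4, 0 and 2 members were called in the 3 comparisons, and 4598, 5 and 3825 genes. Plin1 in STZ,BEZ against Con,SD muscle was at 0.00928 in that fit. Cidea has no value once the 30% dimmest genes are left out.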
